A study of Homo sapiens with 24 samples.

Results

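The aryl hydrocarbon receptor AHR and 6 genes of its pathway were followed through the 8 groups of this series. These 7 members, AHR, ARNT, AHRR, CYP1A1, CYP1A2, CYP1B1 and TIPARP, were found by symbol among 33113 genes of the count table, except TIPARP, which was found among 37967 genes of a second table. AHR was chosen because it was already known to be higher in untreated HCT116 oxpl-R cells than in untreated HCT116 cells, and the question was whether its targets were higher where it was. The untreated samples of the lines are therefore described without a test, and the tests concern the treated samples and the responses to treatment.

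RNA was sequenced from 24 samples, 3 in each group. HCT116 is a human colorectal adenocarcinoma line, and HCT116 oxpl-R was derived from it by repeated pulses of oxaliplatin, a platinum drug that forms DNA adducts. Both lines carried the TetOn-E1A genotype, in which doxycycline switches on the adenoviral E1A gene, and so did their controls. Each line had 4 groups, namely untreated cells, cells with oxaliplatin (25 µM, 24 h), cells with doxycycline (0.5 µg/mL, the E1A groups) and cells with doxycycline from 3 h before oxaliplatin (the E1A + oxaliplatin groups). E1A and doxycycline cannot be told apart, because the series holds no doxycycline samples without the transgene. The resistant line is 1 derived population with a heterogeneous hypotetraploid karyotype, so resistance and other features of that population cannot be told apart either.

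AHR is a transcription factor that waits in the cytosol in a complex with the chaperone HSP90 until it binds an aromatic ligand such as a dioxin or a tryptophan metabolite. It then enters the nucleus, pairs with ARNT and binds DNA at sites with a GCGTG core. Its best known targets are the cytochromes P450 CYP1A1, CYP1A2 and CYP1B1, which oxidize many of these ligands, and the feedback inhibitors AHRR, which competes for ARNT, and TIPARP, which modifies AHR with ADP-ribose. In the gut the receptor is known for its part in barrier function and in the response to dietary and microbial ligands.

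The promoters of 3 targets are shown because they hold the core to which AHR and ARNT bind. They are the 250 bases before 1 RefSeq start of each gene on GRCh38.p14, written 5′ to 3′ along the strand of the gene, at chr15:74725529-74725778 (minus strand) for CYP1A1, chr5:321464-321713 (plus strand) for AHRR and chr3:156674340-156674589 (plus strand) for TIPARP. AHRR and TIPARP have further RefSeq starts, whose windows are not shown. Capitals mark GCGTG, or CACGC where the core lies on the other strand.
CYP1A1: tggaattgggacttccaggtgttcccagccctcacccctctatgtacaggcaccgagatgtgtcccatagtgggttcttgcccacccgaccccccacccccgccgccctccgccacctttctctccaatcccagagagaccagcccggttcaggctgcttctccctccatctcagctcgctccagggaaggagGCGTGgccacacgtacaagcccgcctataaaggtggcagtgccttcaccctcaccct
AHRR: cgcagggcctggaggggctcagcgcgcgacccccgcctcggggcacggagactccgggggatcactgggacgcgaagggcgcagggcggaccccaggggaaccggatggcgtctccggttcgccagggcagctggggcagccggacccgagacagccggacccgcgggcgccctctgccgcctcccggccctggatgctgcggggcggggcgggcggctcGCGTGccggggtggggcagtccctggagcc
TIPARP: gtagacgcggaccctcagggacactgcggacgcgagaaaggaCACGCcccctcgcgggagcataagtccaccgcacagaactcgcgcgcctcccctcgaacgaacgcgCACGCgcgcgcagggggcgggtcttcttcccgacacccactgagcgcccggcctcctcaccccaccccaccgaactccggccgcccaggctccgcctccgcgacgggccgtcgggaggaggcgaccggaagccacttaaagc

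The core lay 57 to 53 bases before the start of CYP1A1 and 30 to 26 bases before the start of AHRR. The TIPARP window shown held it at 208 to 204 and at 142 to 138 bases before the start. A second AHRR window held it at 247 to 243 and at 42 to 38 bases before its start. Windows 2 and 3 of TIPARP did not hold it. Of the 7 members, 6 had promoters in the reference table (CYP1B1 had none), and 3 of the 6 held the core in at least 1 window (4 of 9 windows). It was not found in the windows of AHR, ARNT and CYP1A2. Among 35116 promoter windows of the same length from 27305 genes, 32.2% held GCGTG on either strand, so a match in a window is common and describes letters, not binding.

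The count table summed to between 24838095 and 37927720 estimated counts per sample. Counts of the E1A transgene were 114 to 342 without doxycycline and 5687 to 26996 with it, which matched the labels, and E1A + oxaliplatin replicate 1 of HCT116 was lowest among the induced samples. Within groups, HCT116 oxaliplatin replicate 3 (r of 0.964 and 0.968 with the others) and HCT116 E1A + oxaliplatin replicate 1 (0.971 and 0.964) stood apart from their fellow replicates, and the 3 HCT116 oxpl-R oxaliplatin samples differed from each other (0.964 to 0.973). The labels call the samples biological replicates and say no more of their origin, so p-values measure the spread between these samples. All 6 epithelial markers were detected in every sample. Of these, CDH1 and CLDN4 were called lower in HCT116 oxpl-R cells with E1A (log2FC −0.50 and −0.52, adjusted p = 0.0458 and 0.045 by edgeR). With both agents their log2FC was −0.69 and −0.64 (adjusted p = 0.0441 and 0.0294 by edgeR). The other epithelial markers were not called between the treated lines. The 8 markers of other cell types summed to 13.96 to 53.9 CPM, most of it from COL1A1, which had 339 to 1512 counts per sample. PTPRC and CD3E of leukocytes had at most 14 and 5 counts and DCN of fibroblasts at most 3. COL1A2 had up to 51 counts in HCT116 and up to 489 in HCT116 oxpl-R samples. It was called higher in HCT116 oxpl-R cells with E1A (log2FC 3.74, adjusted p = 0.0439 by edgeR) and with both (log2FC 5.56, adjusted p = 0.011 by edgeR). The samples overlapped in both comparisons, and with both agents the 3 HCT116 oxpl-R samples held 3, 11 and 489 counts. PECAM1, with at most 13 counts per sample, was called higher with E1A (log2FC 3.71, adjusted p = 0.029 by edgeR). The part of these markers in the values below was not tested. Levels below are TMM-normalized CPM (counts scaled to the size of the library) with SDs, fold changes are given as log2FC with standard errors (SE), and adjusted p-values are from edgeR's quasi-likelihood test over all genes. In bulk RNA, fewer cells that express a gene and less RNA per cell cannot be told apart. Statements that samples of 2 groups do not overlap are descriptions, and the share of all genes without overlap is not given here.

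AHR, the receptor gene (chromosome 7, 16916359 to 17346152 on GRCh38, plus strand), was higher in HCT116 oxpl-R than in HCT116 cells under every condition. The 3 untreated HCT116 samples held 64.3, 59.2 and 57.1 CPM, and the 3 untreated HCT116 oxpl-R samples held 270.8, 239.6 and 222.6 CPM. With oxaliplatin the levels were 40.2, 45.5 and 65.5 CPM in HCT116 and 139.0, 248.9 and 228.2 CPM in HCT116 oxpl-R cells. In the resistant line the oxaliplatin samples therefore spread more widely than the untreated ones, with replicate 1 lowest. In the E1A groups AHR stood at 59.3, 56.0 and 45.7 CPM in HCT116 and at 177.0, 180.1 and 157.6 CPM in HCT116 oxpl-R cells. With E1A and oxaliplatin together it stood at 48.3, 42.4 and 56.4 CPM and at 195.1, 166.0 and 100.6 CPM, respectively. The highest of the 12 HCT116 samples (65.5 CPM, 2074 counts) lay below the lowest of the 12 HCT116 oxpl-R samples (100.6 CPM, 3779 counts).

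Ordered by mean, the AHR level was 244.4 ± 24.4 CPM in untreated, 205.4 ± 58.4 in oxaliplatin-treated, 171.6 ± 12.2 in E1A and 153.9 ± 48.4 in E1A + oxaliplatin HCT116 oxpl-R cells (SD, n = 3 each). The HCT116 groups followed in the same order of treatments except that E1A preceded oxaliplatin, with 60.2 ± 3.67, 53.7 ± 7.07, 50.4 ± 13.3 and 49.03 ± 7.02 CPM for untreated, E1A, oxaliplatin and E1A + oxaliplatin cells (SD, n = 3 each). Among neighbours in this order, only E1A + oxaliplatin HCT116 oxpl-R cells and untreated HCT116 cells had samples that did not overlap.

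**Figure D1:**
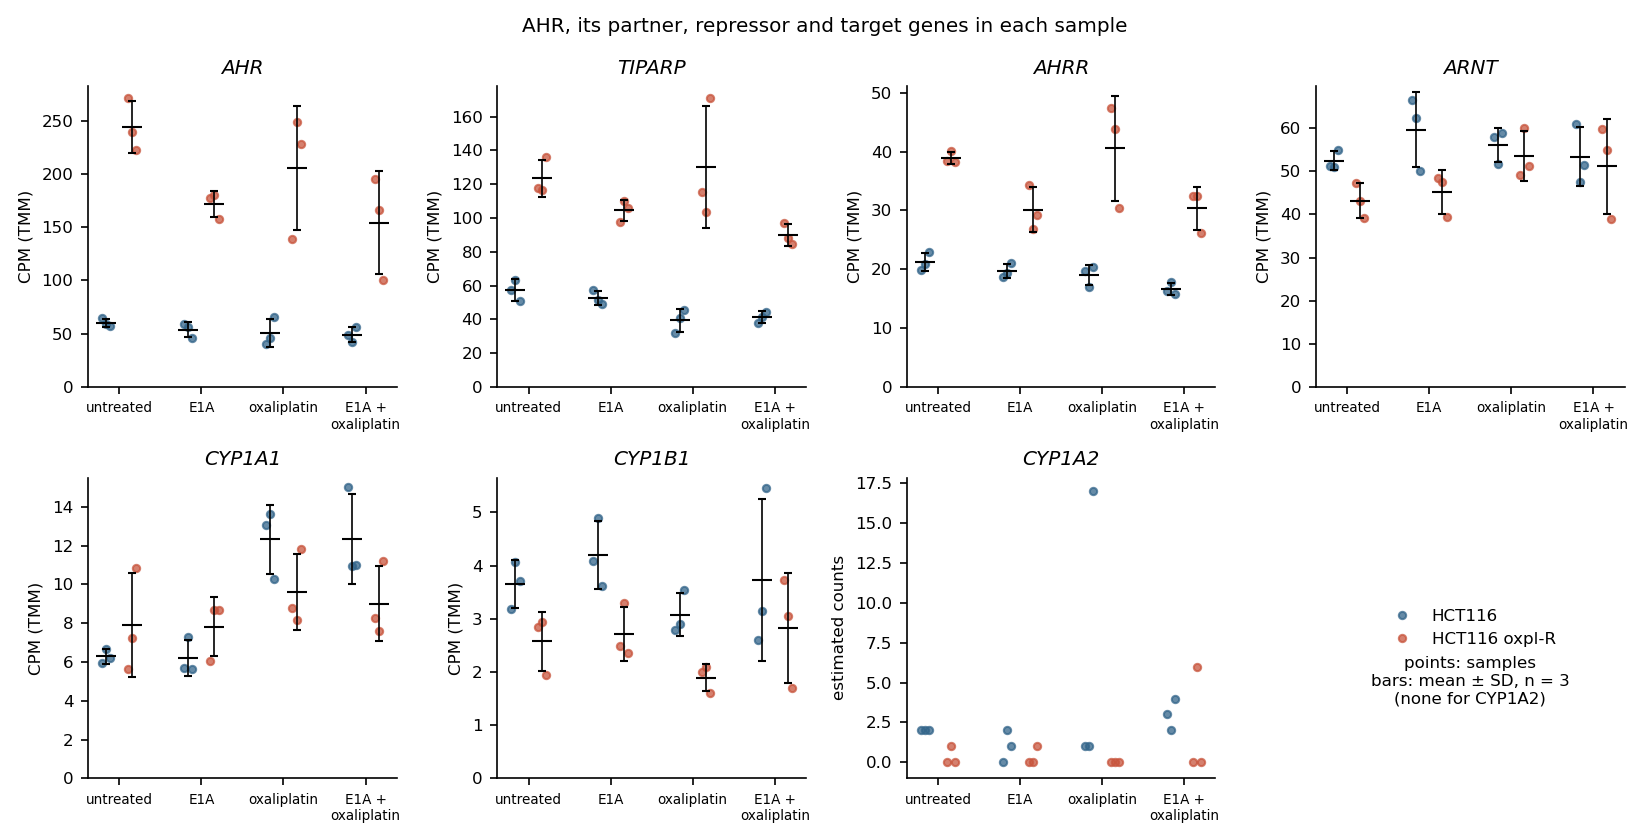
Level of each of the 7 members in every sample, with treatments on the horizontal axis, HCT116 and HCT116 oxpl-R samples in separate colours, points for single samples and bars for the mean ± SD of 3 samples. Levels are TMM-normalized CPM, except for CYP1A2, which is shown in counts without bars. AHR, AHRR and TIPARP of HCT116 oxpl-R cells lie above those of HCT116 cells under every treatment, whereas the CYP1A1 samples of the lines overlap in range.

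Between the untreated lines the log2FC of AHR was 2.03, a 4.08-fold difference, which is the value AHR was chosen on. The treated samples come from the same lines, so they are not independent of that choice. In them, AHR was upregulated in HCT116 oxpl-R cells 3.83-fold with oxaliplatin (log2FC 1.94, SE 0.28, 95% interval 1.34 to 2.54, adjusted p = 4.016e-04 by edgeR). With E1A it was upregulated 3.45-fold (log2FC 1.79, SE 0.15, 95% interval 1.47 to 2.10, adjusted p = 1.037e-05 by edgeR). With both it was upregulated 3.14-fold (log2FC 1.65, SE 0.24, 95% interval 1.13 to 2.17, adjusted p = 2.462e-04 by edgeR). These differences were larger than the spread between replicates in each comparison. Across all genes of the count table tested, 20.7% were called in the oxaliplatin comparison, 17.7% in the E1A comparison and 18.5% in the E1A + oxaliplatin comparison. In each of these comparisons 3 of the 7 members were called, AHR, AHRR and TIPARP, all of them higher in HCT116 oxpl-R cells, where 9.77%, 10.6% and 10.1% of all genes were called higher. The members were chosen with these data known, so this share is a description.

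ARNT, the partner that AHR needs to bind DNA (chromosome 1, 150809713 to 150876708, minus strand), was not called between the lines. Its 12 HCT116 samples ranged from 47.6 to 66.6 CPM with a median of 53.3, and its 12 HCT116 oxpl-R samples from 38.8 to 60.0 CPM with a median of 48.03. Within a treatment, the HCT116 oxpl-R samples lay below the HCT116 samples in untreated and E1A cells and overlapped them with oxaliplatin and with both agents. The log2FC between the untreated lines was −0.27. It was −0.16 with oxaliplatin (SE 0.21, 95% interval −0.61 to 0.29, adjusted p = 0.609 by edgeR), −0.30 with E1A (SE 0.15, 95% interval −0.63 to 0.04, adjusted p = 0.225) and −0.06 with both (SE 0.22, 95% interval −0.53 to 0.40, adjusted p = 0.867). None of the 3 treated comparisons passed at an unadjusted p below 0.05 by edgeR, and DESeq2 called 0. The E1A value was called by limma on the second table (−0.51, adjusted p = 0.0478). The intervals leave no room for a rise of ARNT of the size seen for AHR.

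TIPARP, the ADP-ribosyltransferase that restrains AHR (chromosome 3, 156673235 to 156706770, plus strand), was higher in HCT116 oxpl-R cells under every condition. Its untreated levels in the second table were 57.5, 63.5 and 50.9 CPM in HCT116 and 117.8, 116.5 and 136.3 CPM in HCT116 oxpl-R cells. With oxaliplatin they were 32.1, 40.5 and 45.7 CPM against 115.2, 103.6 and 171.2 CPM. The groups of the lines did not overlap, and replicate 3 was the highest of its group in both lines. With E1A the levels were 57.5, 51.2 and 49.2 CPM against 97.7, 109.9 and 105.7 CPM. With both they were 37.6, 41.4 and 44.6 CPM against 97.2, 88.4 and 84.6 CPM. All 12 HCT116 samples (highest 63.5 CPM) lay below all 12 HCT116 oxpl-R samples (lowest 84.6 CPM).

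The untreated log2FC of TIPARP was 1.11, or 2.15-fold. In the treated samples TIPARP was upregulated 3.22-fold with oxaliplatin (log2FC 1.69, SE 0.24, 95% interval 1.17 to 2.21, adjusted p = 5.153e-04 by edgeR), 1.94-fold with E1A (log2FC 0.96, SE 0.15, 95% interval 0.63 to 1.29, adjusted p = 9.002e-04 by edgeR) and 2.19-fold with both (log2FC 1.13, SE 0.19, 95% interval 0.72 to 1.54, adjusted p = 0.00211 by edgeR). Of all genes tested in the second table, 21.5%, 15.9% and 14.4% were called in these comparisons. TIPARP and AHR therefore differed between the lines in the same direction under each treatment. In the resistant line, the paper reports more copies of the chromosome that carries TIPARP than of most others, with many upregulated genes on it. For the chromosome that carries AHRR it reports fewer copies than of most others. The part of chromosome copy number in the levels of the members was not tested.

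AHRR, the repressor that competes with AHR for ARNT (chromosome 5, 321714 to 438291, plus strand), was also higher in the resistant line, by less than AHR. It stood at 19.9, 20.8 and 22.8 CPM in untreated HCT116 cells and at 38.3, 40.03 and 38.3 CPM in untreated HCT116 oxpl-R cells. With oxaliplatin it stood at 19.7, 17.0 and 20.3 CPM against 47.4, 43.8 and 30.4 CPM. Replicate 3 was the lowest oxaliplatin sample of the resistant line and still lay above all HCT116 samples. With E1A the values were 18.7, 19.4 and 21.0 CPM against 34.3, 26.9 and 29.3 CPM, and with both they were 16.3, 17.8 and 15.7 CPM against 32.5, 32.5 and 26.1 CPM. The 12 HCT116 samples (15.7 to 22.8 CPM, 466 to 643 counts) and the 12 HCT116 oxpl-R samples (26.1 to 47.4 CPM, 701 to 1381 counts) did not overlap.

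The log2FC of AHRR was 0.89 between the untreated lines. It was 1.00 with oxaliplatin (SE 0.25, 95% interval 0.45 to 1.55, adjusted p = 0.0132 by edgeR), 0.72 with E1A (SE 0.18, 95% interval 0.34 to 1.10, adjusted p = 0.015 by edgeR) and 0.87 with both (SE 0.22, 95% interval 0.40 to 1.34, adjusted p = 0.0128 by edgeR). Each of these calls was lost when a single library was left out. The adjusted p was 0.0531 with oxaliplatin without HCT116 oxaliplatin replicate 2, 0.0977 and 0.0896 with E1A without HCT116 E1A replicate 1 or 2, and 0.057 and 0.0731 with both without HCT116 oxpl-R E1A + oxaliplatin replicate 1 or 2. AHRR overlaps the annotated readthrough gene PDCD6-AHRR, which had 0 to 79 counts per sample, so some reads may be split between them. Without HCT116 oxaliplatin replicate 3, which stood apart from its group, the log2FC between the lines with oxaliplatin was 2.18 for AHR, 1.05 for AHRR and 1.79 for TIPARP. Without HCT116 E1A + oxaliplatin replicate 1, it was 1.64, 0.86 and 1.05 with both agents. All 6 values stayed called.

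**Figure D2:**
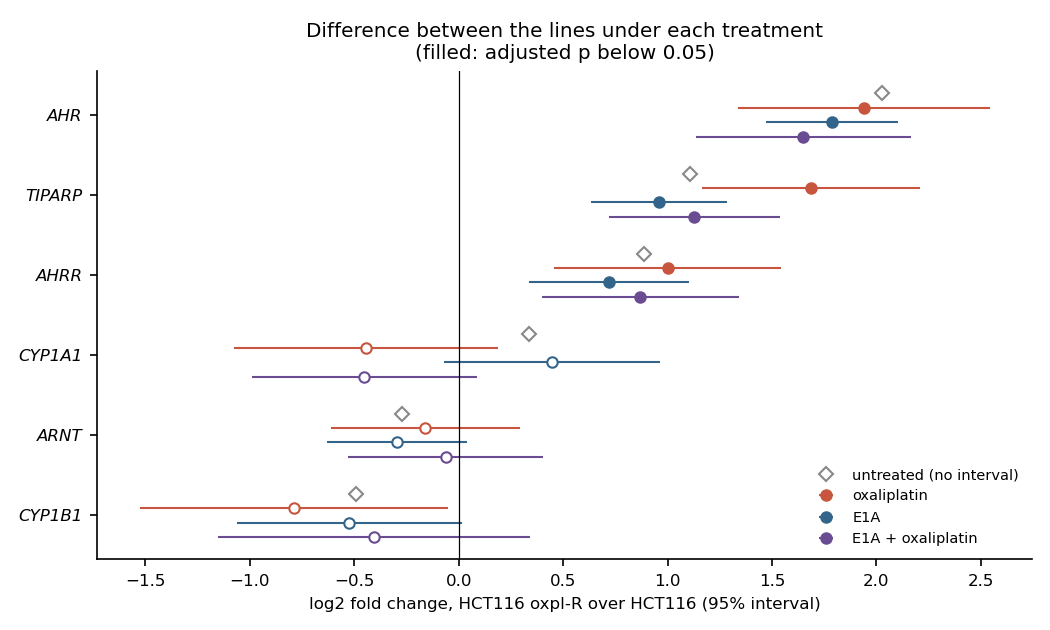
Differences of the members between HCT116 oxpl-R and HCT116 cells as log2FC on the horizontal axis, one colour per treatment, with 95% intervals, filled points for an adjusted p below 0.05 and diamonds without intervals for the untreated samples. AHR (1.65 to 1.94 in treated samples), TIPARP (0.96 to 1.69) and AHRR (0.72 to 1.00) are filled and lie above 0, whereas ARNT, CYP1A1 and CYP1B1 are open in each treated comparison. CYP1A2 is not drawn.

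CYP1A1, the classical AHR target and the gene most often read as a sign of receptor activity (chromosome 15, 74719542 to 74725536, minus strand), did not follow AHR between the lines. Untreated levels were 5.96, 6.69 and 6.21 CPM in HCT116 and 5.62, 7.21 and 10.9 CPM in HCT116 oxpl-R cells. With E1A they were 5.71, 7.29 and 5.61 CPM against 6.05, 8.70 and 8.69 CPM. The lines overlapped in both conditions. With oxaliplatin the levels were 13.1, 13.6 and 10.3 CPM in HCT116 and 8.78, 8.17 and 11.8 CPM in HCT116 oxpl-R cells, and with both they were 15.02, 10.97 and 11 CPM against 8.24, 7.58 and 11.2 CPM. Here the means were lower in the line with more AHR, and the samples still overlapped.

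The log2FC of CYP1A1 between the lines was 0.34 in untreated samples. It was −0.44 with oxaliplatin (SE 0.29, 95% interval −1.08 to 0.19, adjusted p = 0.333 by edgeR), 0.45 with E1A (SE 0.24, 95% interval −0.07 to 0.96, adjusted p = 0.233) and −0.45 with both (SE 0.25, 95% interval −0.99 to 0.09, adjusted p = 0.249). No treated comparison passed at an unadjusted p below 0.05 (0 of 3 by edgeR), and DESeq2 called 0. The upper ends of the intervals lie below the lower ends of the AHR intervals in the same comparisons. CYP1A1 had 140 to 429 counts per sample, so differences within these intervals were not detectable here. For the chromosome that carries this gene, separate passages of the paper give differing copy numbers in the resistant line. The paper also counts that chromosome among those rich in downregulated genes. The part of copy number in these values was not tested.

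CYP1B1, the P450 of the family that is common outside the liver (chromosome 2, 38066973 to 38109902, minus strand), was not higher in HCT116 oxpl-R cells either. Its HCT116 samples held 2.59 to 5.46 CPM (median 3.58, 74 to 162 counts) and its HCT116 oxpl-R samples 1.60 to 3.73 CPM (median 2.42, 40 to 127 counts). The means were lower in the resistant line under each treatment. Within a treatment, the HCT116 oxpl-R samples lay below the HCT116 samples in untreated, oxaliplatin and E1A cells, and the samples overlapped with both agents. The log2FC was −0.49 in untreated samples, −0.79 with oxaliplatin (SE 0.34, 95% interval −1.53 to −0.05, adjusted p = 0.126 by edgeR), −0.52 with E1A (SE 0.25, 95% interval −1.06 to 0.01, adjusted p = 0.177) and −0.41 with both (SE 0.35, 95% interval −1.15 to 0.34, adjusted p = 0.467). Of the 3 treated comparisons, edgeR called 0 and 1 had an unadjusted p below 0.05 (the oxaliplatin comparison, 0.0378), and DESeq2 called 0. CYP1B1 overlaps RMDN2 and antisense genes in the annotation, and whether the counting used strand is not given in the sources used here. In the resistant line, the paper reports fewer copies of the chromosome that carries this gene than of most others. It also describes that chromosome as rich in downregulated genes. The part of copy number in the lower means was not tested.

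CYP1A2, the mainly hepatic neighbour of CYP1A1 (chromosome 15, 74748845 to 74756607, plus strand), was close to absent. It had 17 counts in HCT116 oxaliplatin replicate 3 and at most 4 in the other 11 HCT116 samples. In HCT116 oxpl-R cells it had 6 counts in E1A + oxaliplatin replicate 2 and at most 1 elsewhere, with 0 counts in 9 of 12 samples. A count of 0 allows up to 3 counts, so no fold change is given.

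Treatment moved AHR by less than the difference between the lines. In HCT116 cells the log2FC was −0.18 with oxaliplatin (SE 0.19, adjusted p = 0.507 by edgeR) and −0.21 with E1A (SE 0.11, adjusted p = 0.296), and adding the second agent gave −0.05 over either single treatment (adjusted p = 1 over oxaliplatin and 0.895 over E1A). In HCT116 oxpl-R cells it was −0.25 with oxaliplatin (SE 0.23, adjusted p = 0.65), −0.42 when E1A was added to oxaliplatin (SE 0.27, adjusted p = 0.75) and −0.19 when oxaliplatin was added to E1A (SE 0.22, adjusted p = 0.711). The lowest value against its control came with E1A in HCT116 oxpl-R cells, where the 3 E1A samples lay below the 3 untreated samples. There the log2FC was −0.51 (SE 0.14, 95% interval −0.81 to −0.20). It passed at an unadjusted p below 0.05 and not after adjustment (adjusted p = 0.479 by edgeR), in a comparison that called 0.0755% of all genes.

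None of the 8 treatment comparisons was called for AHR by edgeR, 1 had an unadjusted p below 0.05, and DESeq2 called 0. Of all genes of the count table, 23.3% were called with oxaliplatin, 9.5% with E1A, 0.0246% when E1A was added to oxaliplatin and 10% when oxaliplatin was added to E1A in HCT116 cells, against 4.12%, 0.0755%, 0.638% and 2.06% in HCT116 oxpl-R cells. Without HCT116 oxaliplatin replicate 3, the library that stood apart and had the highest AHR level of its line, the oxaliplatin response of HCT116 cells was −0.46 and was called (adjusted p = 0.00358 by edgeR). The responses of the lines were compared by the interaction term of a fit on 12 samples. The oxaliplatin response differed by −0.05 (SE 0.30, 95% interval −0.69 to 0.59), the E1A response by −0.32 (SE 0.19, 95% interval −0.71 to 0.07) and the response to both by −0.41 (SE 0.28, 95% interval −0.98 to 0.17) on the log2 scale. The adjusted p-values by edgeR were at least 0.637, with 0 of 3 at an unadjusted p below 0.05 and 0 called by DESeq2, where 2.44%, 0.0164% and 0.352% of all genes were called. The untreated samples on which AHR was chosen enter these comparisons.

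CYP1A1 rose with oxaliplatin in HCT116 cells. Against untreated cells it rose 2.07-fold, from 6.29 ± 0.371 to 12.3 ± 1.79 CPM (SD, n = 3), and the samples did not overlap (log2FC 1.05, SE 0.19, 95% interval 0.61 to 1.48, adjusted p = 0.00495 by edgeR). Among all genes, 23.3% were called in this comparison, and CYP1A1 was the only one of the 7 members called. In cells with E1A the rise with oxaliplatin was 2.11-fold, from 6.21 ± 0.940 to 12.3 ± 2.33 CPM (SD, n = 3, log2FC 1.08, SE 0.23, 95% interval 0.59 to 1.57, adjusted p = 0.00937 by edgeR), where 10% of all genes were called. The second call was lost without HCT116 E1A replicate 1 (log2FC 0.93, adjusted p = 0.0975) and without replicate 3 (0.92, adjusted p = 0.0643). Without the libraries that stood apart, HCT116 oxaliplatin replicate 3 and HCT116 E1A + oxaliplatin replicate 1, the respective log2FC was 1.12 and 0.87, both called. The AHR level of these cells was not called as changed.

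In HCT116 oxpl-R cells CYP1A1 stood at 7.90 ± 2.70 CPM without and 9.60 ± 1.96 CPM with oxaliplatin (SD, n = 3), and the samples overlapped. The log2FC was 0.28 (SE 0.29, 95% interval −0.34 to 0.91, adjusted p = 0.657 by edgeR), in a comparison that called 4.12% of all genes. With E1A the response to oxaliplatin was 0.16 (SE 0.26, 95% interval −0.40 to 0.73, adjusted p = 0.805), and 2.06% of all genes were called. The line by oxaliplatin interaction was −0.75 (SE 0.36, 95% interval −1.51 to 0.02, adjusted p = 0.328 by edgeR). The interaction for E1A + oxaliplatin against untreated cells was −0.83 (SE 0.34, 95% interval −1.54 to −0.12, adjusted p = 0.362) and passed at an unadjusted p below 0.05 alone. A difference between the responses of the lines was thus not called. E1A alone left CYP1A1 at a log2FC of −0.06 in HCT116 and −0.02 in HCT116 oxpl-R cells. The summed level of the 6 epithelial markers was also higher with oxaliplatin, at 11160 to 12860 CPM against 6426 to 7256 CPM in untreated HCT116 cells and 11440 to 16760 against 7607 to 8232 CPM in HCT116 oxpl-R cells, and its part in the CYP1A1 values was not tested. The keratins carried this sum, with KRT8 at 3770 ± 372 CPM in untreated and 7071 ± 517 CPM in oxaliplatin-treated HCT116 cells, whereas EPCAM stood at 346.5 ± 15.5 and 330.5 ± 76.2 CPM (SD, n = 3).

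TIPARP went the other way from CYP1A1 in oxaliplatin-treated HCT116 cells, at 39.4 ± 6.83 against 57.3 ± 6.34 CPM in untreated cells (SD, n = 3), and the samples did not overlap. The log2FC was −0.50 (SE 0.17, 95% interval −0.88 to −0.11, adjusted p = 0.0718 by edgeR). DESeq2 gave −0.53 with an adjusted p of 0.0273, and without HCT116 oxaliplatin replicate 3 edgeR gave −0.68 with an adjusted p of 0.00193. In HCT116 oxpl-R cells the log2FC was 0.07 (SE 0.21, adjusted p = 0.88 by edgeR). The interaction was 0.60 (SE 0.27, 95% interval 0.03 to 1.18, adjusted p = 0.272 by edgeR, with 3.17% of all genes called). Over the 8 treatment comparisons of TIPARP, edgeR called 0, 3 had an unadjusted p below 0.05 and DESeq2 called 1. The second table called 21.1% of all genes with oxaliplatin, 5.22% with E1A, 0.0209% when E1A was added to oxaliplatin and 7.63% when oxaliplatin was added to E1A in HCT116 cells, and 4.28%, 0.0593%, 0.634% and 1.96% in HCT116 oxpl-R cells.

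**Figure D3:**
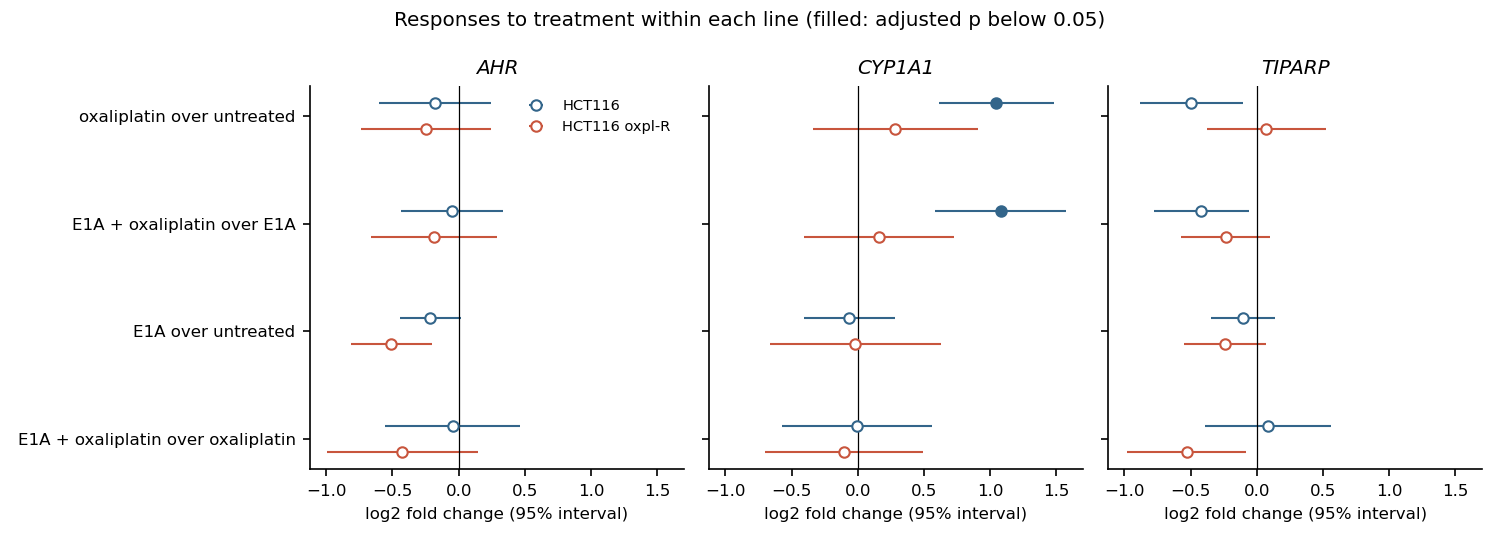
Responses of AHR, CYP1A1 and TIPARP to treatment within HCT116 and HCT116 oxpl-R cells, as log2FC on the horizontal axis with 95% intervals and filled points for an adjusted p below 0.05. The 2 filled points are the CYP1A1 responses to oxaliplatin in HCT116 cells (1.05 without and 1.08 with E1A), and the intervals of the HCT116 oxpl-R responses of CYP1A1 span 0.

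AHRR and ARNT were not called in any of the 8 treatment comparisons by edgeR. For AHRR, 1 had an unadjusted p below 0.05 (E1A in HCT116 oxpl-R cells, log2FC −0.37, adjusted p = 0.805), and DESeq2 called 0. For ARNT none had, and DESeq2 called 0. Group means of ARNT lay between 43.2 and 59.7 CPM over the 8 groups.

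Sample by sample, TIPARP followed AHR within each line more closely than the other members did. Over the 12 samples of a line, Pearson's r of log2(CPM + 1) with AHR was 0.746 in HCT116 and 0.559 in HCT116 oxpl-R cells for TIPARP, 0.274 and 0.44 for AHRR, and −0.525 and −0.352 for CYP1A1. For CYP1B1 it was 0.504 and 0.24, for ARNT 0.264 and 0.341, and for CYP1A2, which was close to absent, 0.443 and −0.118. The samples of a line share treatments, and the coefficients are given as descriptions. The negative sign of CYP1A1 in HCT116 cells goes with the 6 oxaliplatin samples, in which CYP1A1 was highest and AHR lay below the untreated samples in 5 of 6.

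**Figure D4:**
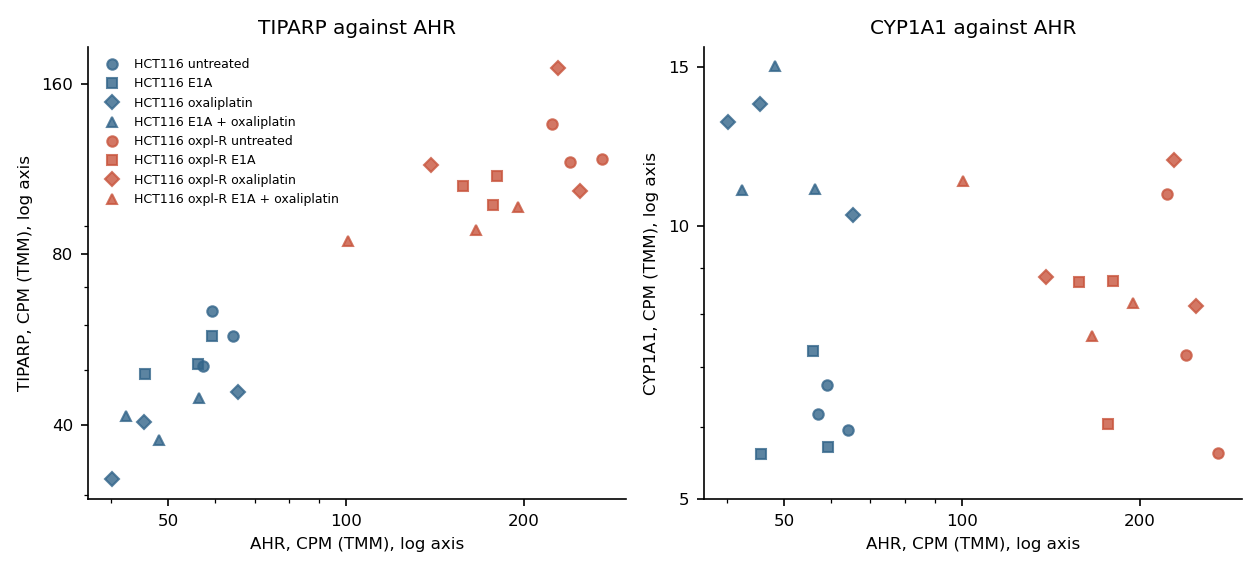
TIPARP and CYP1A1 against AHR in the 24 samples, all in TMM-normalized CPM on log axes, with colours for the lines and symbols for the treatments. TIPARP rises with AHR both between the lines and within them (r of 0.746 and 0.559), whereas the HCT116 oxpl-R samples, with up to 270.8 CPM of AHR, lie within the CYP1A1 range of the HCT116 samples (5.61 to 15.02 CPM).

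Beyond the members, 33 genes tied to the pathway were grouped in 5 lists, of which UGT1A1, UGT1A6 and VAV3 were not analysed here. Genes that were tested in the count table numbered 24 with oxaliplatin, 26 with E1A and 26 with both. Between the lines 6 of the 24 were called higher in the resistant cells and 4 were called lower with oxaliplatin. With E1A, 5 of 26 were higher and 6 lower, and with both, 7 of 26 were higher and 3 lower. Over all genes tested, 9.77% were higher and 10.9% lower with oxaliplatin, 10.6% and 7.1% with E1A, and 10.1% and 8.39% with both. SLC7A5, STC2 and TDO2 were read from the second table, where SLC7A5 was lower in each comparison.

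Of the drug metabolism genes, NQO1, ALDH3A1 and ABCG2 were upregulated in HCT116 oxpl-R cells in each treated comparison. NQO1, a quinone reductase that the oxidative stress factor NFE2L2 also drives, held 530.9 ± 63.0 CPM in untreated HCT116 and 995.9 ± 149.2 CPM in untreated HCT116 oxpl-R cells (SD, n = 3). With oxaliplatin it held 411.9 ± 119.8 and 1162 ± 288 CPM (SD, n = 3), a log2FC of 1.42 (SE 0.30, adjusted p = 0.00472 by edgeR), and with E1A and with both the log2FC was 1.14 and 1.36. ALDH3A1, an aldehyde dehydrogenase, held 4.00 ± 0.966 CPM in HCT116 and 19.0 ± 5.98 CPM in HCT116 oxpl-R cells with oxaliplatin (SD, n = 3, log2FC 2.16, SE 0.33, adjusted p = 6.194e-04 by edgeR). Its log2FC was 1.60 with E1A and 1.78 with both. The list's median log2FC over its 5 genes with at least 10 counts on average was 1.42, 1.15 and 1.36 with oxaliplatin, E1A and both, beside medians over all such genes of −0.001, 0.06 and 0.05.

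ABCG2, a drug efflux transporter, had a log2FC of 2.07 with oxaliplatin (SE 0.46, adjusted p = 0.00633 by edgeR), 1.40 with E1A (SE 0.44, adjusted p = 0.0437) and 1.37 with both (SE 0.41, adjusted p = 0.0296). Replicate 3 was the highest in all 4 HCT116 oxpl-R groups, and without it the values with E1A and with both were 0.54 (adjusted p = 0.118) and 0.96 (adjusted p = 0.178). The E1A call was also lost without HCT116 E1A replicate 1, 2 or 3 (adjusted p = 0.141, 0.122 and 0.105). In all, the ABCG2 call with E1A was lost in 7 recomputed values and kept in 6. With both agents it was lost in 4 and kept in 9, and with oxaliplatin it was kept in all 13. CYP2S1, a further P450 of the battery, was not called between the treated lines (log2FC 0.10, 0.55 and 0.29, adjusted p = 0.755, 0.0555 and 0.36). NFE2L2 was lower in HCT116 oxpl-R cells with E1A (log2FC −0.71, SE 0.14, adjusted p = 0.00533 by edgeR) and had values of −0.61 with oxaliplatin and −0.51 with both that were not called (adjusted p = 0.116 and 0.0873).

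The other reported AHR targets were called in both directions. NEDD9, an adhesion scaffold, had at most 37 counts in any HCT116 sample and 868 to 1794 counts in HCT116 oxpl-R samples, with a log2FC of 6.87 with oxaliplatin (SE 0.49, adjusted p = 3.245e-06 by edgeR), 5.65 with E1A and 5.84 with both. PTGS2, the inducible cyclooxygenase, was upregulated with oxaliplatin (log2FC 1.46, SE 0.41, adjusted p = 0.0214) and with both (1.30, SE 0.29, adjusted p = 0.00528) and had 0.58 with E1A (adjusted p = 0.102). The first of these calls was lost without HCT116 oxpl-R oxaliplatin replicate 2 or 3 (adjusted p = 0.0609 and 0.0527).

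HES1, a repressor of the Notch pathway, was lower in HCT116 oxpl-R cells with oxaliplatin (−1.10, SE 0.21, adjusted p = 0.00266 by edgeR) and with both (−0.61, SE 0.20, adjusted p = 0.0448), the latter at an adjusted p of 0.0507 with the replicate number as a block. That call was also lost without HCT116 E1A + oxaliplatin replicate 2 or 3 (0.112 and 0.0679) and without HCT116 oxpl-R replicate 1 or 2 (0.117 and 0.222). SLC7A5, an amino acid transporter that carries tryptophan and kynurenine, was lower by −1.05 with oxaliplatin (SE 0.22, adjusted p = 0.00576), −0.61 with E1A (SE 0.17, adjusted p = 0.0296) and −0.91 with both (SE 0.19, adjusted p = 0.00754). The E1A call was lost without HCT116 E1A replicate 1 or 2 (0.143 and 0.129) or HCT116 oxpl-R E1A replicate 2 (0.0568). The list's median over 7 to 9 genes was 0.04, −0.57 and 0.04 with oxaliplatin, E1A and both.

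In the cytosolic complex that holds AHR, HSP90AB1 was lower in HCT116 oxpl-R cells in each treated comparison. For HSP90AB1, a subunit of the chaperone HSP90, the log2FC was −1.23 with oxaliplatin (SE 0.36, adjusted p = 0.028 by edgeR), −0.88 with E1A (SE 0.20, adjusted p = 0.00933) and −0.89 with both (SE 0.19, adjusted p = 0.00479). The oxaliplatin call was lost without HCT116 oxaliplatin replicate 3 (adjusted p = 0.0668) or HCT116 oxpl-R oxaliplatin replicate 2 (0.0799), and the E1A call without HCT116 E1A replicate 1 or 2 (0.0541 and 0.063). The co-chaperone PTGES3 and HSP90AA1 were not called, and HSP90AA1 was far higher in replicate 3 than in the other replicates of each HCT116 oxpl-R group. It had 42513, 38743, 30830 and 20958 counts in replicate 3 of the untreated, E1A, oxaliplatin and E1A + oxaliplatin groups and 2944 to 11227 counts in the other 8 samples. ABCG2 was highest in the same 4 libraries.

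Among the enzymes that make and consume kynurenine, a tryptophan metabolite that binds AHR, KMO was called higher in HCT116 oxpl-R cells. KMO is on the consuming side, since it hydroxylates kynurenine. It had at most 2 counts in any HCT116 sample and 18 to 90 counts in the HCT116 oxpl-R samples. Against 3 counts per sample this was at least 26.8-fold higher with oxaliplatin, at least 11.2-fold with E1A and at least 18.7-fold with both. Of the initiating enzymes, IDO1 and IDO2 had at most 1 count in any sample. TDO2, read from the second table, had at most 1 count in HCT116 samples, 17 in HCT116 oxpl-R E1A replicate 3, 7 in HCT116 oxpl-R E1A + oxaliplatin replicate 2 and at most 3 in the other HCT116 oxpl-R samples, and it was not called between the treated lines.

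**Figure D5:**
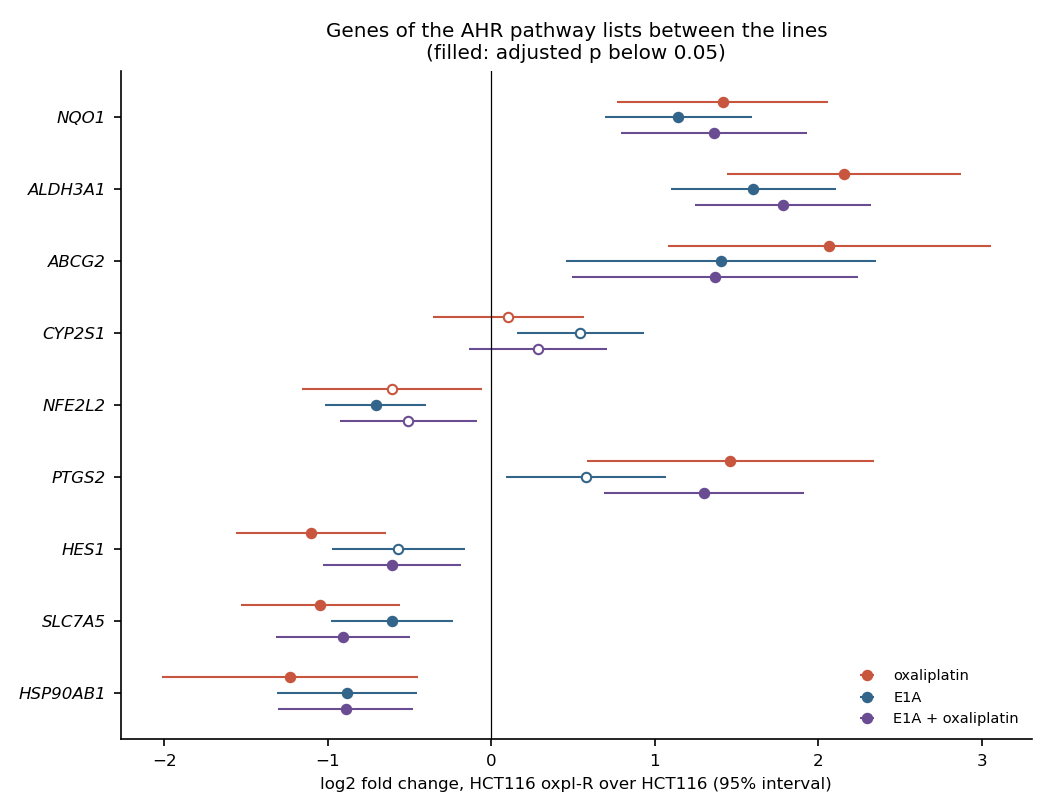
Differences between HCT116 oxpl-R and HCT116 cells for 9 genes of the pathway lists in the treated samples, as log2FC on the horizontal axis with 95% intervals, one colour per treatment, and filled points for an adjusted p below 0.05. NQO1, ALDH3A1 and ABCG2 lie above 0 in all 3 comparisons, and HSP90AB1 and SLC7A5 lie below 0 in all 3. NEDD9 and KMO are outside the range of the plot and are not drawn.

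Among genes of the pathway lists, ALDH3A1 and SLC7A5 were called with oxaliplatin in both lines, and CYP2S1 in HCT116 cells alone. Over all genes of the count table, 23.3% were called in HCT116 and 4.12% in HCT116 oxpl-R cells. In the second table, which holds SLC7A5, these shares were 21.1% and 4.28%. ALDH3A1 rose in HCT116 cells (log2FC 1.65, SE 0.27, adjusted p = 0.00303 by edgeR) and in HCT116 oxpl-R cells (1.44, SE 0.27, adjusted p = 0.00859). CYP2S1 rose by 1.37 in HCT116 cells (SE 0.16, adjusted p = 9.14e-04), and its value of 0.67 in HCT116 oxpl-R cells (SE 0.19, adjusted p = 0.0718) was called with the replicate block (adjusted p = 0.0206) and without oxaliplatin replicate 1 (adjusted p = 0.0199). SLC7A5 fell by 0.53 in HCT116 cells (SE 0.12, adjusted p = 0.0115) and by 1.21 in HCT116 oxpl-R cells (SE 0.19, adjusted p = 0.00418), and the first call was lost without HCT116 control replicate 1 or 2 (adjusted p = 0.0635 and 0.0522). These genes were picked for description among the named pathway genes after their values were seen.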

How the data were processed

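RNA-seq of 24 samples (8 groups of 3) was analysed. The authors trimmed the reads with Trimmomatic, used Salmon 1.6.0 to quantify GENCODE transcripts (GRCh38), and summed these by gene in tximport. One table that the authors deposited holds unnormalized estimated counts (33113 genes in alphabetical order to SETP6, 15.9% to 30.4% of values not whole). A second deposited table (37967 genes to TSC22D3) is named TPM. However, its columns do not sum to the fixed total of TPM and follow the counts (r of 0.9988 or higher). It was therefore read as length-scaled estimated counts, a reading that the plan had allowed for. It was used for genes after SETP6, namely TIPARP, SLC7A5, STC2, TDO2 and SOSTDC1. Genes after TSC22D3 were not analysed here.

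Values were rounded. Samples were grouped by the labels. Each comparison was fitted on its own 6 samples (interactions on 12) with edgeR 4.0.16 in R 4.3.3, with TMM, the quasi-likelihood test over genes with a count in any sample, and Benjamini-Hochberg adjustment over all of them, called below 0.05. SEs and 95% intervals come from the same fits. The tests were tried on simulated data first. DESeq2 1.42.0, limma 3.58.1 on log2(value + 1) and log2(value + 0.1), RLE, filterByExpr, all 24 samples in one fit, the replicate block, the second table and each sample left out were alternatives. Tables were made in Python 3.11.15 with pandas 2.3.3, and plots with matplotlib 3.10.9. Promoter sequences are RefSeq's, positions GENCODE's. Limits from counts of 0 (up to 3 counts) cover counting error only.

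The members and lists were chosen with earlier results of these data known. Named in the text are the members, pathway genes called in at least 2 of the 3 comparisons of the treated lines, tested drug metabolism genes, the genes most and least like AHR over the 24 samples, and genes that start within 1 Mb of AHR. Genes named outside this rule are background, gene overlaps, markers and single pathway genes chosen after their values were seen. Values of some genes that the rule names are not reported here. Same-numbered replicates deviated together (all 3 correlations across genes above 0.1) between the lines with oxaliplatin (0.141, 0.188 and 0.253) and for E1A + oxaliplatin against E1A in HCT116 oxpl-R cells (0.419, 0.48 and 0.529). No other comparison of 2 groups met this rule. Replicates 2 and 3 of HCT116 oxpl-R cells still deviated together for E1A against untreated (0.028, 0.508 and 0.678 for replicates 1 to 3). The same held for oxaliplatin against untreated (0.0839, 0.465 and 0.547).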

Additional observations from a re-analysis of the deposited data

How the results depend on the processing

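Of 1239 values recomputed for 93 results, 1142 kept their direction and side of the threshold (for counts and untested values, stayed close to the main value). AHR stayed called between the treated lines under every alternative, at log2FC of 1.80 to 2.18 with oxaliplatin, 1.68 to 1.86 with E1A and 1.43 to 1.88 with both when a sample was left out. TIPARP stayed called likewise (1.47 to 1.81, 0.898 to 1.04 and 1.05 to 1.19). With the replicate number as a block, AHR gave 1.93, 1.79 and 1.61, and the block changed the call only of HES1 with both agents and of CYP2S1 with oxaliplatin in HCT116 oxpl-R cells among 93 results. Losses and gains of a call numbered 9 and 18 under changed settings and 41 and 9 with a sample left out. Reversals concerned values near 0. E1A + oxaliplatin against oxaliplatin for AHR in HCT116 was 0.029 in the second table, 0.048 with limma on it and −0.182 to 0.191 with a sample left out, and the AHR interaction for oxaliplatin was 0.005 with all 24 samples in one fit and −0.208 to 0.193. With a sample left out, AHR with E1A + oxaliplatin against E1A ran from −0.233 to 0.051 in HCT116 and, in the resistant line, from −0.395 to 0.05, ARNT between the lines with both from −0.205 to 0.102, CYP1A1 with E1A + oxaliplatin against E1A in HCT116 oxpl-R cells from −0.011 to 0.286, CYP2S1 between the lines with oxaliplatin from −0.016 to 0.212 and TIPARP with oxaliplatin in HCT116 oxpl-R cells from −0.166 to 0.204. AHR with oxaliplatin in HCT116 ran from −0.457 to −0.081. The number of pathway genes called with E1A was 11 and ran from 6 (without HCT116 E1A replicate 1 or 2) to 14. The untreated log2FC of AHRR was 1.09 in the second table. The cause of these changes was not tested, and a fit without a sample has fewer samples. Precision was limited for CYP1A1, CYP1B1 and CYP1A2, which had at most 429, 162 and 17 counts in a sample.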

Other observations

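Among 11096 genes with at least 10 counts on average, those whose log2(CPM + 1) was most like AHR over the 24 samples were KLF5, an epithelial transcription factor (Pearson's r = 0.982), PLEKHS1 (0.973), EMP1 (0.971), CTH, an enzyme of cysteine synthesis (0.971) and RUNX2 (0.970). Those with the lowest coefficients were ECHS1 (−0.962), CKMT1B (−0.962), PARP12 (−0.955), PLEK2 (−0.955) and CILP2 (−0.954). The 24 samples fall into the 2 lines, so these coefficients mostly reflect genes that differ between them, and no test was made. Within the lines, the coefficient of KLF5 was 0.683 over the 12 HCT116 and 0.971 over the 12 HCT116 oxpl-R samples. Over the HCT116 samples the others were lower, at 0.551 for CTH, 0.299 for EMP1, 0.159 for PLEKHS1 and −0.27 for RUNX2. Over the HCT116 oxpl-R samples these genes had 0.75, 0.828, 0.817 and 0.936.

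BZW2 and ANKMY2, which start within 1 Mb of AHR on chromosome 7, were not called between the treated lines by edgeR. BZW2 had a log2FC of −0.32 with oxaliplatin, −0.54 with E1A and −0.81 with both (adjusted p = 0.534, 0.26 and 0.0756 by edgeR), and ANKMY2 had −0.12, −0.28 and −0.81 (adjusted p = 0.871, 0.541 and 0.14). Between the untreated lines, where AHR was chosen and no test is given, BZW2 had −0.945 and ANKMY2 −0.76, both lower in HCT116 oxpl-R cells. AGR2, AGR3 and SOSTDC1 were near 0 counts, and TSPAN13 was not analysed here. The window was measured from the GENCODE start of AHR at 16916359. The RefSeq promoter of AHR lies downstream of it, at 17298402 to 17298651, so genes further downstream of that promoter may be missed.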
